A study of Mus musculus with 12 samples.

Results

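The voltage-gated sodium and calcium channel genes were taken as every gene symbol for a sodium channel pore or beta subunit (Scn with a number and a or b) or beginning with Cacna, Cacnb or Cacng. The hippocampus table held 33 of them among 14663 named genes, and 39 were found among the 29957 of the microglia table. The 6 found in the microglia table only were Cacna1f, Cacna1s, Cacng1, Scn4a, Scn10a and Scn11a. The tables give Scn2a, a main sodium channel of excitatory neurons, under its older symbol Scn2a1, which the naming pattern does not take. Its values are set beside the others but it was not counted.

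RNA was sequenced from C57BL/6 mice in 4 groups of 3 libraries. Microglia of the hippocampus came from mice aged 3 or 24 months, and whole hippocampus from mice aged 6 or 18 months. The labels record no allele and no treatment beyond aging, and they do not give sex, how microglia were isolated, or whether each library is a separate animal. The p-values therefore measure only the spread between these libraries, which may be technical. Each library began from 5 ng of total RNA, copied with an oligo-dT primer and amplified for 12 PCR cycles.

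Voltage-gated sodium channels open on depolarization and carry the rising phase of the action potential. Each is built around a large pore protein, joined by small beta subunits that set its gating and its place in the membrane. Voltage-gated calcium channels have a related pore protein. L-type channels couple activity to gene expression, N-, P/Q- and R-type channels sit mainly at synapses and dendrites, and T-type channels open near rest and support burst firing. Intracellular beta and extracellular alpha2delta subunits bring the calcium pores to the membrane. Most Cacng genes of the brain encode TARPs, which are auxiliary subunits of AMPA glutamate receptors rather than of calcium channels. These proteins are mainly neuronal in the hippocampus, whereas microglia do not fire action potentials.

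The sodium pore genes resemble each other closely, which matters for how their reads are assigned. Over all annotated transcripts (GENCODE M21, GRCm38), 7.29% of the 31-base words of Scn1a also occurred in another gene, 550 of them in Scn2a. The share was 9.57% for Scn3a and 9.16% for Scn2a, but 0.49% for Scn8a. Reads from such stretches can be split between these genes, so the values of Scn1a, Scn2a and Scn3a carry that uncertainty. Scn3a, Scn2a, Scn1a, Scn9a and Scn7a also lie next to each other on chromosome 2, Scn1a at chr2:66270778-66440840 on the minus strand. Scn8a lies alone at chr15:100869858-101045938 on the plus strand.

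The promoters of the member genes were of unlike base composition. Those of Scn1a and Cacna1b are shown because both genes had a lower mean at 18 months with an unadjusted p under 0.05, yet the windows differ. Each runs from 250 bases before to 50 after a RefSeq start (GRCm38.p6), with GC boxes (GGGCGG on either strand) in capitals.
Scn1a, chr2:66440788-66441087, minus strand: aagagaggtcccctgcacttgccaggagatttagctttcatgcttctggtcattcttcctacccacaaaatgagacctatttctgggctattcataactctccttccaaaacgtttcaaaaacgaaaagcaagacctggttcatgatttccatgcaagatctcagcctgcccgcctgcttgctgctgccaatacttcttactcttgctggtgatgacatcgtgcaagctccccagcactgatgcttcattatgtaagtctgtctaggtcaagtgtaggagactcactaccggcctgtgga
Cacna1b, chr2:24763103-24763402, minus strand: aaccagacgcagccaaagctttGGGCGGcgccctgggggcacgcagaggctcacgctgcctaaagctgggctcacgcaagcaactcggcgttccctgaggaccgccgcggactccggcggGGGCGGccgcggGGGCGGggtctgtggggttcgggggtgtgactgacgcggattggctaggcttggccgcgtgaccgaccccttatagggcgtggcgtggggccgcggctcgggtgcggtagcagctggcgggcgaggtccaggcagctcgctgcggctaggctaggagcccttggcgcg
The Scn1a window held 5 CpG dinucleotides and no GC box, whereas that of Cacna1b held 35 CpG and 3 GC boxes. The 41 promoters found for 30 member genes had a median of 9 CpG, against 7 over all 32851 promoters of the table. A GC box was present in 16 of the 41 (39%) and in 35.7% of all promoters. TATAAA was present in 2 of the 41 (4.88%) against 13.6% of all, and neither TGACGTCA nor TCAGCACC, each searched on both strands, was found in a member promoter. Those 8-letter words occurred in 1.79% and 1.65% of all promoters.

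The hippocampus values are normalized counts, that is read counts scaled between libraries by the authors, and they summed to between 974126 and 1002529 per library. The read depth behind them is not known. The microglia table holds estimated counts, which summed to between 8068023 and 14217142 per library. Neuron markers had like summed levels in both hippocampus ages: the sum of 10 pan-neuronal markers was 9109 to 9936 at 6 months and 9055 to 9668 at 18 months. Singly they went both ways, with 5 lower and 5 higher fitted levels at 18 months. Of the higher ones, 1 had an unadjusted p under 0.05 in limma. In the microglia libraries the 10 microglia markers summed to between 65512 and 87030 CPM (counts scaled to a common library size),, and the pan-neuronal markers to between 3.68 and 23.4 CPM, with Tubb3 at 0 in every library.

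In whole hippocampus, no channel gene passed the test for a difference between 18 and 6 months. Of the 30 that reached a normalized count of 1 in at least 3 libraries, 0 had an adjusted p under 0.05 in either direction (limma on log2 of the normalized count plus 1, Benjamini-Hochberg over all genes). The background was the same: 0 of 13491 genes, 0.00% in each direction. The remaining 3, Cacna1d, Cacna2d4 and Scn7a, were too low to test. At an unadjusted p under 0.05, limma found 4 of the 30 with lower fitted levels at 18 months (Scn1a, Cacna1b, Cacnb2 and Scn3b), where 3.24% of all genes did, and 0 with higher levels, where 2.13% did. The authors' deposited table gave no member an adjusted p under 0.05, of 27 with a value, against 0.186% of genes lower and 0.118% higher. At an unadjusted p under 0.05 that table had 5 of 33 members lower, the same 4 and Cacna2d3, where 3.30% of genes were, and 0 higher, where 3.16% were. Every 18 month library lay below every 6 month library in 4 members, Scn1a, Scn8a, Scn3b and Cacna1h. That held for 5.93% of genes tested, and the opposite, which held for 5.03%, was seen in 0 members. The median log2 difference, 18 minus 6 months, was -0.17 over the 30 members and -0.04 over all genes tested, and 17 of the 30 had a negative fitted difference on that scale, where 52.8% of genes did.

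These counts depended on single libraries. At an unadjusted p under 0.05, 2 members were lower without 6 month replicate 2 or without 18 month replicate 2, and 5 without 6 month replicate 3 or 18 month replicate 3. Under the same threshold 2 members were higher without 6 month replicate 1 or without 18 month replicate 3. Without 6 month replicate 3, 9 members had all 18 month libraries below all 6 month libraries. Members with all 18 month libraries above numbered 3, 2 and 4 without 6 month replicate 1, 6 month replicate 3 and 18 month replicate 3. With fewer libraries the ages separate more easily, so these counts cannot be set against the shares given above. The shares of all genes with a library left out were not determined.

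**Figure D1:**
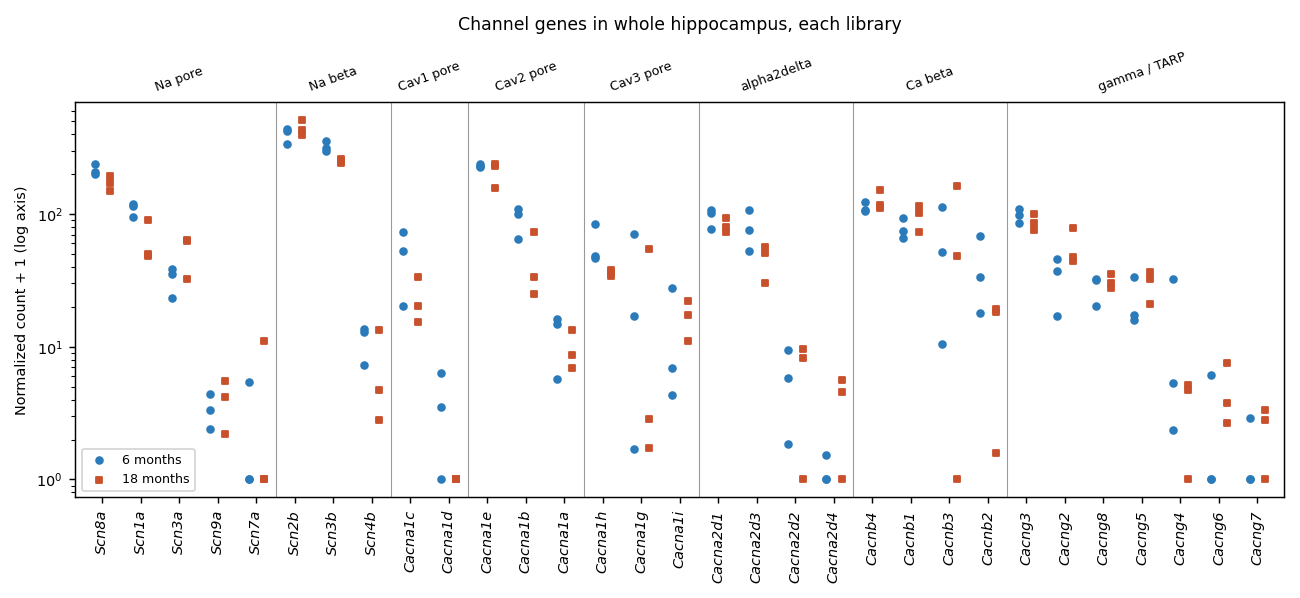
Normalized count plus 1 (log axis) of 31 channel genes in each hippocampus library, grouped by the role of the protein. Circles are 6 month and squares 18 month libraries, with 3 of each. Scn2b, Scn3b, Cacna1e and Scn8a lie highest.

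Levels spanned a wide range. Values were divided by the length of the principal transcript for a rough comparison of genes. That takes reads to cover transcripts evenly, which was not tested for this oligo-dT priming. It also rests on the transcript chosen: 6585 bases for Cacna1c, whose longest coding transcript has 13162. On this scale auxiliary subunits had high mean levels over the 6 libraries: 90.3 normalized counts per kb for Scn2b, 68.9 for Scn3b and 32.9 for Cacng3. The library ranges of Scn2b (72.0 to 109) and Scn3b (58.4 to 86.0) overlapped, so their order is not settled. Among pores, Scn8a had 17.0 per kb, Cacna1e 14.7 and Scn1a 10.6, beside 20.5 for Scn2a. Scn8a (13.0 to 20.9) and Cacna1e (10.5 to 16.0) also overlapped. Cacna1b stood at 6.90, Cacna1h at 5.70, Cacna1c at 5.28 and Scn3a at 4.36 per kb. Cacna1a, the P/Q-type pore, was at 1.26 per kb, and Cacna1d, an L-type pore, was the lowest at 0.150.

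Among sodium channel pores, Scn1a had 18 month levels below all of its 6 month levels. Scn1a encodes the main sodium channel of fast-spiking inhibitory neurons. Its normalized counts were 119, 94.7 and 115 at 6 months and 49.0, 47.6 and 89.8 at 18 months. The groups did not overlap, although the third 18 month library came close to the second 6 month library. The means were 109 ± 12.8 and 62.1 ± 24.0 (SD, n = 3 each). The log2 difference was -0.86 ± 0.30 (SE, 95% interval -1.50 to -0.23), with an unadjusted p of 0.0116 and an adjusted p of 0.877 in limma. The authors' deposited table gave -0.78 with an adjusted p of 0.411. Summed markers of inhibitory neurons were 835 to 924 at 6 months and 840 to 948 at 18 months, so the sums overlapped between ages. Of these 8 markers, 2 had lower and 6 higher fitted levels at 18 months. Of the lower ones, 1 had an unadjusted p under 0.05 in limma. The sum does not measure fast-spiking neurons alone. In bulk tissue, fewer cells of a type and less RNA per cell cannot be told apart.

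Scn8a encodes the sodium channel concentrated where the axon begins. It had 236, 208 and 198 at 6 months and 171, 191 and 147 at 18 months. Each 18 month library was below each 6 month library, with a gap smaller than the spread within either age. The log2 difference was -0.34 ± 0.19 (adjusted p of 0.909 in limma), and its 95% interval, -0.74 to 0.07, included 0. Scn3a, known as the sodium pore of the developing brain, had 34.4, 37.3 and 22.4 at 6 months and 62.6, 61.8 and 31.6 at 18 months. In it the third 18 month library fell within the 6 month range (log2 difference 0.68 ± 0.41, limma adjusted p of 0.913). Scn2a1 had 226, 96.3 and 193 at 6 months and 119, 205 and 261 at 18 months, with wide overlap.

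The summed level of the 6 pore genes was 390, 344 and 346 at 6 months and 322, 315 and 273 at 18 months, without overlap. The 6 include Scn1a and Scn8a, each of which separated the ages singly. The share of sums of genes outside this part that separate the ages was not determined. With Scn2a1 added the sums were 615, 440 and 539, then 442, 520 and 534, and the ages overlapped. Scn9a and Scn7a, known mainly from sensory neurons and from glia and other non-neuronal cells, had means of 2.67 and 2.40.

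Of the sodium channel beta subunits, Scn3b had lower values in all 18 month libraries and Scn2b did not. Scn3b, at chr9:40269217-40291618 on the plus strand (GRCm38), had 295, 314 and 357 at 6 months and 248, 242 and 258 at 18 months. The 18 month libraries were close together, with means of 322 ± 31.7 and 250 ± 8.04 (SD, n = 3 each). The log2 difference was -0.36 ± 0.16, with an unadjusted p of 0.0415 and an adjusted p of 0.909 in limma. The authors' deposited table gave an adjusted p of 0.489. Scn2b, which is linked to the pore by a disulfide bond, was the most abundant member: 435, 335 and 420 at 6 months, then 393, 430 and 509. Those groups overlapped, with a log2 difference of 0.16 ± 0.16 (95% interval -0.19 to 0.52). Scn4b had a mean of 8.10.

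**Figure D2:**
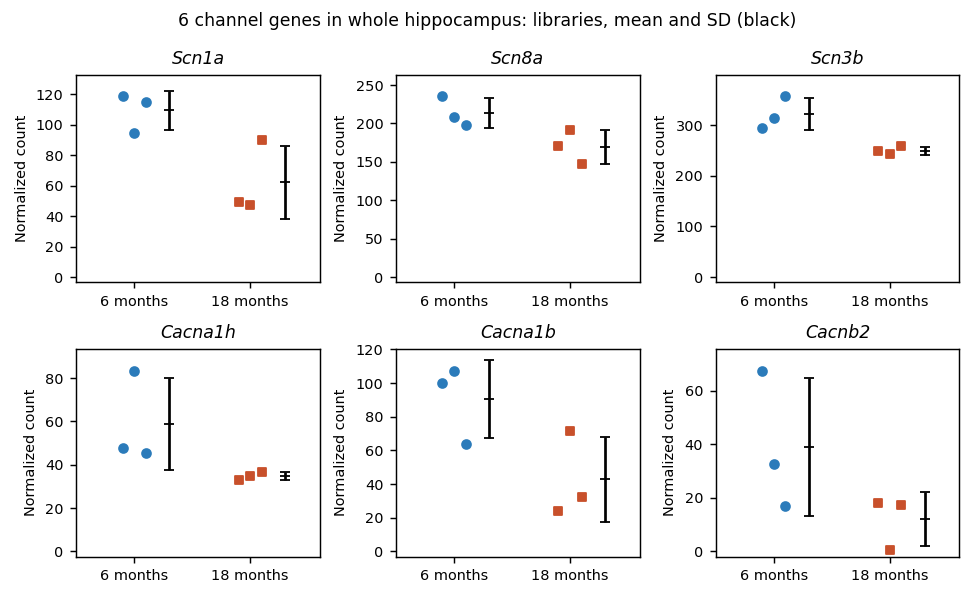
Normalized counts of Scn1a, Scn8a, Scn3b, Cacna1h, Cacna1b and Cacnb2 in each hippocampus library, with the mean and SD in black. The ages do not overlap for the first 4 genes, and do overlap for Cacna1b and Cacnb2.

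The 3 synaptic and dendritic calcium pores, Cacna1a, Cacna1b and Cacna1e, all had lower means at 18 months, and none passed the test. Cacna1b encodes the N-type pore, which triggers transmitter release. Its normalized counts were 99.8, 107 and 64.0 at 6 months and 24.1, 71.7 and 32.6 at 18 months, so the second 18 month library lay above the third 6 month library. The log2 difference was -1.18 ± 0.40 (95% interval -2.03 to -0.33), with an unadjusted p of 0.0102 and, in limma, an adjusted p of 0.877. That adjusted p was the smallest of any member, shared with Scn1a, and the authors' deposited table gave 0.313. Cacna1e, the R-type pore, was the most abundant calcium pore, with 229, 238 and 225 at 6 months and 229, 157 and 238 at 18 months. Only the second 18 month library was low, and without it the log2 difference of -0.17 ± 0.20 became 0.02. Cacna1a had 15.3, 4.74 and 13.9, then 12.4, 5.92 and 7.62. Together the 3 genes summed to 344, 350 and 303 at 6 months and 265, 234 and 278 at 18 months, without overlap. Singly, the ages overlapped for each of the 3. The sums of the sodium beta, L-type, T-type, alpha2delta, Cacnb and Cacng genes each overlapped between the ages. How often sums of genes outside this part separate the ages was not determined.

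L-type pores were represented by Cacna1c, with 51.3, 72.2 and 19.2 at 6 months and 14.3, 19.3 and 32.3 at 18 months. The third 6 month library lay within the 18 month range, and the log2 difference of -0.97 ± 0.54 had a 95% interval of -2.13 to 0.19. Cacna1d had 0, 5.33 and 2.51 at 6 months and was listed at 0 in all 18 month libraries.

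Cacna1h was the T-type pore with the highest mean and the one with separate groups. It lies at chr17:25374285-25433783 on the minus strand (GRCm38). Its values were 47.6, 83.5 and 45.3 at 6 months and 33.1, 34.9 and 36.8 at 18 months, so the second 6 month library alone was far above the rest. The log2 difference was -0.68 ± 0.36 (adjusted p of 0.909 in limma), and -0.40 without that library. Cacna1g, another T-type pore, had 0.700, 70.2 and 16.0 at 6 months and 0.727, 53.8 and 1.88 at 18 months. The summed choroid plexus markers were 110, 6861 and 2278, then 3535, 10843 and 238, so the same library of each age was highest in both. The part of choroid plexus RNA in the Cacna1g values was not tested. Cacna1i had 26.9, 3.35 and 5.90, then 10.1, 16.3 and 21.1.

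The libraries of both ages overlapped for each of the 3 alpha2delta genes that could be tested. Cacna2d1, a target of gabapentin, had 101, 107 and 76.2 at 6 months and 79.4, 72.5 and 93.0 at 18 months. Cacna2d3 had 106, 75.4 and 51.8, then 50.3, 29.3 and 55.0, with 1 crossing pair of libraries. Its log2 difference was -0.77 ± 0.36 (unadjusted p of 0.0512 and adjusted p of 0.909 in limma). Cacna2d2 was low, with means of 4.70 at 6 months and 5.26 at 18 months.

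The calcium channel beta subunits went different ways. Cacnb2, known from cardiac and neuronal L-type channels, had 67.6, 32.7 and 17.0 at 6 months and 18.2, 0.595 and 17.4 at 18 months. Its log2 difference was the most negative of any member, -2.07 ± 0.91 (unadjusted p of 0.0399, adjusted p of 0.909 in limma), and rested on the second 18 month library: without it the difference was -0.88. Cacnb4, which had the highest normalized count of the 4 but at 14.4 per kb stood below Cacnb3 (25.7) and Cacnb1 (25.5), had 122, 104 and 107, then 109, 150 and 116. Cacnb1 had 92.9, 65.0 and 72.9, then 115, 101 and 71.8, with a log2 difference of 0.30 ± 0.27. Cacnb3 varied widely, at 9.43, 112 and 50.4, then 162, 47.7 and 0. Its direction differed between the limma fit (-0.98 ± 1.38) and both the group means (57.2 and 69.8) and the authors' deposited table (0.29), and became 1.18 without 18 month replicate 3.

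Among the Cacng genes, 5 of the 7 had higher means at 18 months and none separated the ages. Cacng2, stargazin, which carries AMPA receptors to the synapse, had 44.5, 16.1 and 35.9 at 6 months and 46.7, 77.6 and 43.4 at 18 months. The first 6 month library lay above the third 18 month library, and the log2 difference was 0.84 ± 0.44 (limma adjusted p of 0.909). Cacng3 was the most abundant, at 109, 84.3 and 96.9, then 99.0, 74.4 and 84.8. Cacng8, the hippocampal TARP, had 30.9, 31.6 and 19.2, then 26.7, 34.3 and 29.5. Cacng5 had 15.0, 16.3 and 32.8, then 35.9, 31.7 and 20.1. Cacng4 had 31.5 in the first 6 month library and 0 to 4.36 in the others. Summed, the 7 genes gave 231, 150 and 196, then 212, 225 and 191.

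**Figure D3:**
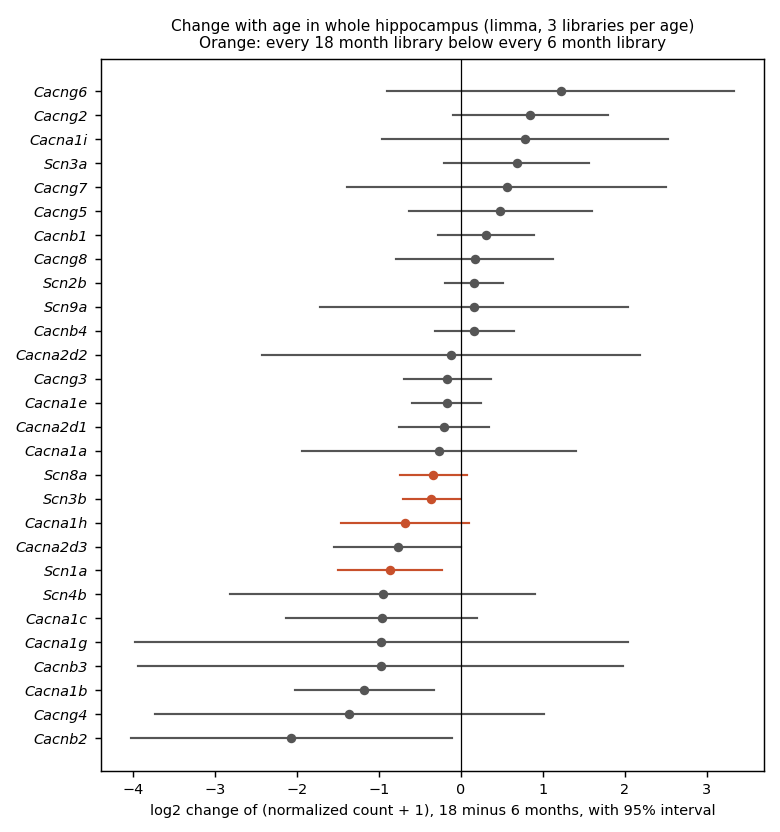
Log2 difference of 28 tested channel genes in hippocampus, 18 minus 6 months, with its 95% interval. The intervals of Scn1a, Scn3b, Cacna1b and Cacnb2 lie below 0, the other 24 include 0, and orange marks the 4 genes whose ages do not overlap.

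Genes whose products bind these channels were counted from lists by role, and no list held a gene with an adjusted p under 0.05 in limma. Of 28 sodium channel partners tested, 16 had lower and 12 higher fitted levels at 18 months, with a median log2 difference of -0.03. At an unadjusted p under 0.05 in limma, 0 were lower and 1 higher, where 3.24% and 2.13% of all genes were. Nfasc, which holds sodium channels at the axon start, had 124, 115 and 99.8, then 75.1, 96.4 and 85.4 (unadjusted p of 0.116 in limma). Of 39 calcium channel partners, 22 were lower and 17 higher, with a median of -0.07. At the same threshold 2 of them were lower and 2 higher. Rims2, an active-zone protein that binds N- and P/Q-type channels, had 15.0, 17.8 and 19.1, then 0, 2.44 and 3.92 (log2 difference -2.83 ± 0.88, limma adjusted p of 0.877).

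Of 15 AMPA receptor subunits and companions of the TARPs, 7 were lower and 8 higher, with a median of 0.03. Cnih3, another auxiliary subunit, had 77.3, 54.8 and 58.9, then 108, 96.4 and 108. Of 14 sodium leak and intracellular calcium channel and pump genes, 6 were lower and 8 higher. Atp2b1, a calcium pump of the cell membrane, had 485, 507 and 408, then 352, 379 and 328. Excitatory neuron markers summed to 7586 to 8991 at 6 months and 9146 to 10016 at 18 months, mostly Camk2a. Singly, of the 8 excitatory markers, 4 had lower and 4 higher fitted levels at 18 months, with a median log2 difference of -0.02. Microglia markers summed to 698 to 811 and 945 to 992. The part of these cell types in the channel values was not tested.

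In hippocampal microglia, channel mRNA was close to the limit of detection. Of the 39 genes, 9 had no count in any library (each library with a count of 0 allows up to 3 counts), 12 had under 20 counts over the 6 libraries together and 18 had 20 or more. A count in all 6 libraries was found for 7. The levels of all 39 summed to 8.21, 29.9 and 39.6 CPM at 3 months and 65.7, 34.0 and 44.0 CPM at 24 months, where the second 24 month library fell within the 3 month range. edgeR's quasi-likelihood test could be run on 8 members, and 0 had an adjusted p under 0.05 in either direction, as for 0 of 10663 genes (0.00% each way). At an unadjusted p under 0.05 it found 0 members, where 2.02% of genes were lower and 3.52% higher. The authors' deposited table gave none of 15 members an adjusted p under 0.05, against 0.480% of genes lower and 1.54% higher. In 0 of the 8 did the ages separate, where 6.18% of genes had all 24 month libraries lower and 7.26% all higher. Of the 8, 7 had higher and 1 lower fitted levels at 24 months, where 49.5% of genes were lower, and the median log2 difference was 0.88 against 0.01 over all genes.

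**Figure D4:**
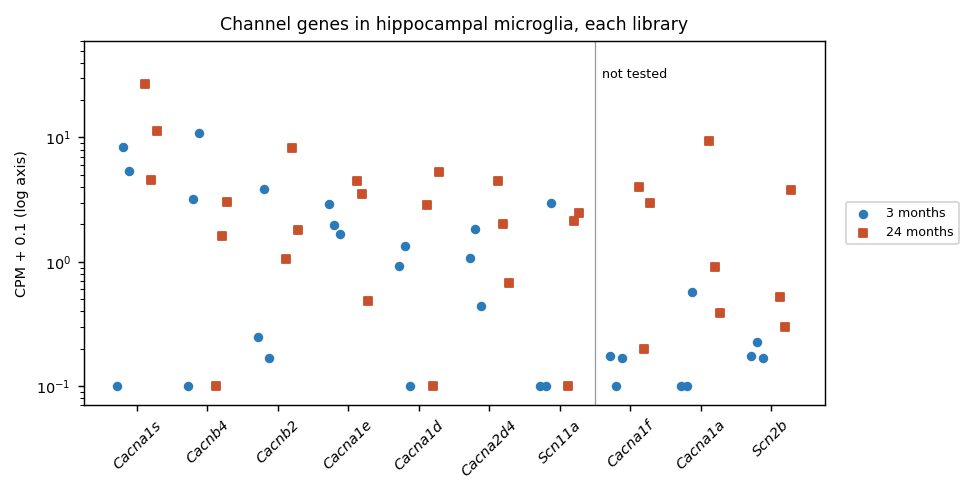
CPM plus 0.1 (log axis) of 10 channel genes in each microglia library. Circles are 3 month and squares 24 month libraries, with 3 of each, and the 3 genes right of the line did not pass the filter for the test. Most values lie under 10 CPM, and Cacna1s reaches 27.0 CPM in 1 library.

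Cacna1s, the L-type pore of skeletal muscle, had the highest CPM of any member in microglia. It had 0, 8.23 and 5.24 CPM at 3 months and 27.0, 4.44 and 11.2 CPM at 24 months. The groups overlapped and the log2 difference was 1.66 ± 1.76 (adjusted p of 0.993 in edgeR). Cacnb4, the 1 gene with a lower fitted level, had 0, 3.12 and 10.7 CPM, then 0, 1.51 and 2.94 CPM.

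Another 5 tested genes, Cacnb2, Cacna1e, Cacna1d, Cacna2d4 and Scn11a, had between 0 and 8.07 CPM in each library, and the ages overlapped in all of them. Their standard errors were 1.15 or more on the log2 scale, with edgeR adjusted p-values from 0.993 to 0.998. Per transcript length, Cacna1s averaged 13.9 TPM (length-scaled abundance) and Cacnb2 2.15 TPM, and Cacnb4, Cacna1e, Cacna1d, Cacna2d4 and Scn11a at most 1.27 TPM.

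A few genes had counts mainly in old microglia, and are named here after their values were seen. Cacna1f, an L-type pore best known from photoreceptors, had 1, 0 and 1 counts at 3 months and 37, 1 and 30 counts at 24 months. Scaled for depth, the 24 month sum was 41.1 times the 3 month sum. That ratio pools the reads of the libraries and does not measure the spread between them. Of the 3 old libraries, 1 held a single count, and no young library held more than 1. The authors' deposited table gave a log2 difference of 6.17 with an adjusted p of 0.0858. With no filter on low counts, edgeR gave an adjusted p of 0.718, and DESeq2 gave 0.155. Scn2b had 1.01, 1.14 and 1.01 counts, then 4.12, 2.02 and 39.4, so its pooled ratio of 18.1 rested on the third 24 month library. Cacna1a had 0, 0 and 6.56 counts, then 87.0, 8.35 and 3.00, mostly in the first 24 month library.

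That library, 24 month replicate 1, also held markers of other cells. Its neutrophil markers summed to 2392 CPM, against 0.340 to 27.5 in the other 5 libraries, its mural cell markers to 295 CPM and its excitatory neuron markers to 174 CPM, although Slc17a7 was at 0. It had the highest CPM of Cacna1s, Cacna1a, Cacna1f, Cacna1e and Cacna2d4. The part of those cells in the channel counts was not tested. Conversely, Cacna2d3 (56.0 counts) and Cacnb1 (39.0 counts) had reads in 3 month replicate 3 only.

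**Figure D5:**
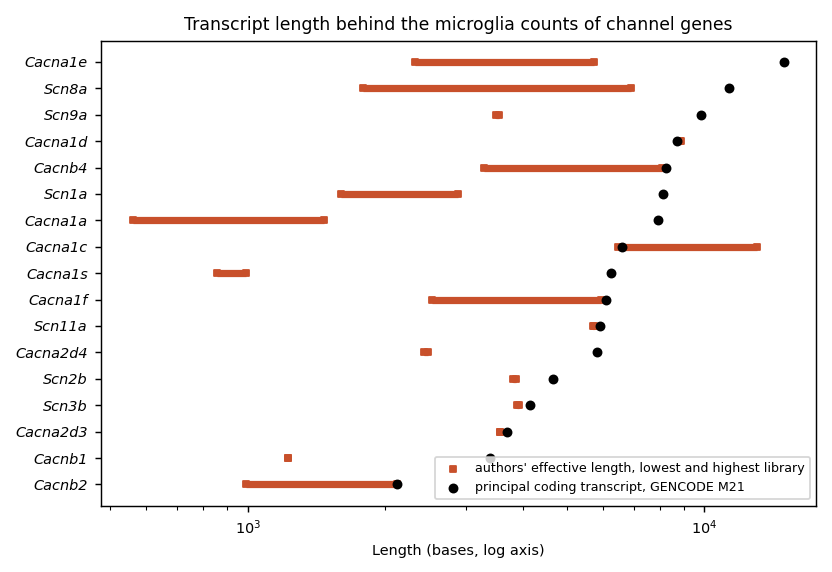
Effective transcript length behind the microglia counts, lowest to highest library, for 17 channel genes with 20 or more counts, beside the length of the principal coding transcript in GENCODE M21 (log axis). Cacna1s and Cacna1a lie far to the left of their coding transcripts.

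The length to which the counts were assigned differed from that of the channel-coding mRNA for some members. The microglia table gives, for each gene and library, an effective length averaged over its transcripts by their abundance. For Cacna1s it was between 858 and 989 bases in the libraries with a count, while the coding transcripts of GENCODE M21 are 4923 to 6251 bases long. The annotation also holds non-coding Cacna1s transcripts of 795 and 1001 bases. For Cacna1a the length was 561 to 1466 bases, against 7503 to 7926 for its coding transcripts. In 7 of the 18 genes with 20 or more counts, every library with a count had a length shorter than the principal transcript by more than a factor of 2. These were Cacna1s, Cacna1a, Cacna1e, Cacna2d4, Cacnb1, Scn1a and Scn9a. For Cacna1e (2326 to 5724 bases) and Scn1a (1603 to 2881), coding transcripts as short as 331 and 1690 bases are also annotated. Their lengths are therefore not set apart from those of all coding transcripts. Scn11a, at 5694 to 5716 bases against 5899, did not show this, and neither did Scn2b. The annotation used by the authors may differ from GENCODE M21.

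Partner genes were tested in microglia by the same lists, and edgeR called none. Of 18 sodium channel partners tested, 8 had lower and 10 higher fitted levels at 24 months, and of 25 calcium channel partners, 11 and 14. Ank2, which anchors membrane proteins to the cytoskeleton, had 12.4, 5.86 and 11.2 CPM, then 98.0, 67.8 and 38.0 CPM (log2 difference 2.79 ± 0.62, edgeR adjusted p of 0.539). Gem, a small GTPase that inhibits calcium channels by binding their beta subunits, had 0.224, 2.12 and 6.20 CPM, then 210, 134 and 7.78 CPM (edgeR adjusted p of 0.629). Its groups did not overlap, but the third 24 month library was close to the young ones.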

How the data were processed

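Whole hippocampus (6 and 18 months) and hippocampal microglia (3 and 24 months) were profiled by RNA sequencing, with 3 libraries per group by the labels. kallisto, DESeq and DESeq2, and the builds GRCm39 and mm10, are named in the submitters' processing notes, with no versions or roles. For hippocampus, the authors deposited normalized counts, treated here as a signal because whole reads were not given. For microglia, the authors deposited estimated counts, TPM and effective transcript lengths, per the file headers. The authors' deposited comparison tables hold a log2 fold change, its standard error, a test score (Wald statistic) and p-values. The hippocampus log2 values of the authors, 6 over 18 months, were turned in sign.

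Hippocampus was tested with limma 3.58.1 with a mean trend on log2 of the value plus 1, for genes of at least 1 in 3 libraries. Microglia counts were rounded and tested with edgeR 4.0.16 (quasi-likelihood, TMM scaling, filterByExpr), both in R 4.3.3. Tests were two-sided, Benjamini-Hochberg adjusted over all genes tested, with a threshold of 0.05. The fits were tested on simulated data. CPM uses TMM-scaled library sizes. Rows with a blank gene name, 0.0233% to 0.0335% of hippocampus values and 0.0546% to 0.0771% of microglia counts, were left out. No libraries held identical values.

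The member genes and partner lists were chosen with earlier results of these data known. Values are given for members that pass the test or separate the ages, the 8 most abundant in hippocampus, the highest of each subfamily and those tested in microglia. Another 9 hippocampus genes, and the microglia genes said to be so, were added after their values were seen. Hippocampus values of Cacna1d, Cacna1i, Cacng5 and Cacng8 are also given, outside that rule and those 9. Partners named are among those of each list with the smallest p-values. Alternatives were other pseudocounts, filters, scalings, tools, a replicate block and leaving out libraries. Gene coordinates and transcripts are from GENCODE M21 (GRCm38), promoters from RefSeq (GRCm38.p6). Some member and partner genes are counted but not reported here by name.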

Additional observations from a re-analysis of the deposited data

How the results depend on the processing

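No channel gene had an adjusted p under 0.05 under any alternative run in either tissue. Among all hippocampus genes, limma without a trend called 1, and leaving out each library in turn called 0 to 1 (1 without 6 month replicate 1). Among all microglia genes, DESeq2 called 251, and leaving out each library called 0 to 55 (55 without 24 month replicate 3). Over 27 gene-level log2 differences and 343 alternatives, 8 changed sign. In hippocampus, leaving out each library in turn gave ranges of -0.75 to 0.0036 for Cacna1a, -0.28 to 0.016 for Cacna1e, -2.51 to 0.27 for Cacna1g and -2.49 to 1.18 for Cacnb3. With replicate 2 of both ages left out, chosen after seeing the data because these libraries had the highest choroid plexus sums, Cacna1e became 0.037 and Cacnb4 -0.019, and 2 members were lower at an unadjusted p under 0.05 in place of 4. Without a trend that number was also 2, and the share of all genes was not determined for either setting. In microglia, leaving out each library gave -0.14 to 0.87 for Cacna1e. Scn1a, Scn8a, Scn3b, Cacna1h and Cacna1b kept a negative difference under every alternative. For the first 4 the ages do not overlap, so leaving out a library could not have turned the sign. Nor was this particular to them: Cacna1c, Cacna2d1, Cacna2d3, Cacnb2, Cacng3 and Cacng4 also stayed negative whichever library was left out. The causes were not tested.

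Replicate numbers showed little sign of pairing the libraries. These correlations were taken between ages, after the mean of each age was subtracted from every gene. Same-numbered libraries then correlated by 0.0094 to 0.0142 in hippocampus and -0.010 to 0.085 in microglia. Differently numbered libraries correlated by -0.052 to 0.042 in hippocampus and -0.080 to 0.075 in microglia. With a replicate block, 0 members and 0 genes were called in either tissue, and Cacna1e in microglia became -0.091.

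The depth behind the hippocampus values is unknown. In microglia, 9 of the 39 channel genes had no count and 12 had under 20 over all libraries.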
